A study of Mus musculus with 8 samples.

Results

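The mouse genes Zfp100 to Zfp599 are zinc finger protein genes named by number, and they were followed here over 4 stages of male germ cell development. A gene belonged to the set when its current symbol was Zfp followed by a number of 3 digits beginning with 1 to 5 and at least 1 probe set was annotated to that gene alone. This gave 130 genes with 257 probe sets, of 18193 genes on the array. Of these members, 61 had 1 probe set, 40 had 2 and 29 had 3 or more. The current gene table holds 149 symbols of this form, and 128 of the 130 members are protein-coding genes while 2 are transcribed pseudogenes. The set was chosen by symbol and by no measured value.

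Transcripts were measured on 8 oligonucleotide arrays, with 2 arrays at each stage: spermatogonia of type A, spermatogonia of type B, pachytene spermatocytes, then round spermatids. All groups shared the mixed BL/6-129 background, the labels name no engineered allele or treatment, and each array came from its own germ cell preparation. The sources used here give no age, purification or purity. Spermatogonia divide by mitosis before meiosis, type A ahead of type B. Pachytene spermatocytes pair and recombine their chromosomes in meiotic prophase, and round spermatids are haploid.

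Most proteins of this kind carry arrays of C2H2 zinc fingers, folds held by a zinc ion that read DNA bases. Many also carry a KRAB domain, which recruits the corepressor TRIM28 (KAP1). TRIM28 in turn brings the histone methyltransferase SETDB1 and heterochromatin protein 1, and this machinery is best known for silencing retrotransposons. Other members have no KRAB domain and act as activators, chromatin factors or RNA-binding proteins, so a shared symbol does not mean a shared function.

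Each value is the authors' MAS5 signal, a linear intensity that had been scaled so that the trimmed mean was 125 on every array. A change is therefore relative to the rest of the array, and a signal says nothing about the level of one gene against another. Changes are given as the difference of log2(signal + 16), which understates the change of a dim gene, with the standard error of a limma fit over all 8 arrays (± SE, 2 arrays against 2). A call means a Benjamini-Hochberg adjusted p under 0.05 over the 14145 genes tested. In such mixed preparations, fewer cells of one type and less RNA per cell cannot be told apart.

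The replicates of type B spermatogonia differed more than those of the other stages. Across genes, their log2 signals correlated at r = 0.886, against 0.962 to 0.981 in the other stages. The summed signal of 6 pachytene markers was 1243 and 962 in type A spermatogonia and 1786 and 7770.5 in type B spermatogonia. It was 14653 and 15392 in pachytene spermatocytes and 17605 and 17358 in round spermatids, so the sum does not separate the later stages. Ldhc made up 4895.9 of the sum in type B replicate 2, against 28.3 in replicate 1. Sycp1 alone ran the other way, at 1274 in type B replicate 1 and 232 in replicate 2. In type B replicates 1 and 2, 6 round spermatid markers summed to 126 and 1278.5, and 6 spermatogonia markers to 5428 and 3412. Type B replicate 2 also lay nearer to pachytene cells for the members. Over 18 members at least 1 log2 unit higher in pachytene than in type A cells, it lay a median 40.1% of the way, and replicate 1 lay 10.1% of the way. Peritubular and stromal markers (6 of 6 on the array, none listed at 0) summed to 8633 to 13401 on the 4 spermatogonial arrays, against 686 to 1135 on the 4 later arrays. Sertoli cell markers (9 of 10 on the array, none listed at 0) summed to 4294 to 7174 on the spermatogonial arrays, 2962 to 3904 in pachytene spermatocytes and 728 to 949 in round spermatids. The part of these somatic transcripts and of the type B gap in the results was not tested.

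The largest share of the set had its highest mean in type A spermatogonia. By the stage of the highest group mean, 63 members (48.5%) peaked in type A spermatogonia, 16 (12.3%) in type B spermatogonia, 36 (27.7%) in pachytene spermatocytes and 15 (11.5%) in round spermatids. Over all 18193 genes the shares were 32.2%, 18.2%, 23.4% and 26.2%. The 201 other numbered Zfp genes lay between the members and all genes in 3 of the 4 stages, with 41.3%, 14.4%, 28.9% and 15.4%. Round spermatids held a smaller share of members than of all genes under each of the 4 scalings tried: 11.5% to 27.7% of members, against 26.2% to 42.2% of all genes. Type A spermatogonia held a larger share of members under each of them, although it was the leading stage only with the deposited scaling. With arrays centred on their 75th percentile 36 members peaked in type A spermatogonia and 48 in pachytene spermatocytes, and with centring on ribosomal protein genes these counts were 32 and 60. Without type B replicate 2, members peaking in type B spermatogonia numbered 30 and those peaking in type A spermatogonia 50.

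**Figure D1:**
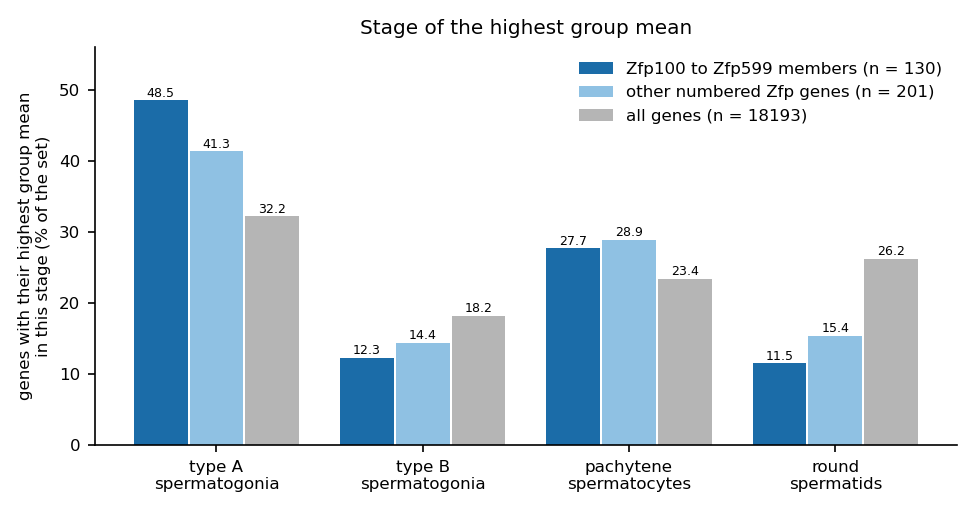
Bars give the percent of genes whose highest group mean of log2(signal + 16) fell in each stage, for the 130 members (left), the 201 other numbered Zfp genes (middle) and all 18193 genes (right). The members' bar is above that of all genes in type A spermatogonia (48.5% and 32.2%) and below it in round spermatids (11.5% and 26.2%).

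The 2 spermatogonial stages were close for most members. Of 66 tested members that peaked in one of them, 55 had the other as the next highest stage. The median margin over the next stage was 0.24 log2 units for members peaking in type A spermatogonia and 0.18 for type B, against 0.47 for pachytene spermatocytes and 0.42 for round spermatids. Margins of 1 log2 unit or more were found for 1 member in type A, 0 in type B, 7 in pachytene cells and 4 in spermatids. Probe sets limit this assignment: of 43 members with several probe sets above the filter, 20 had the same peak stage in all of them.

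Of the 130 members, 116 were tested because they lay above the array median on at least 2 of 8 arrays, and 65 of them did so on all 8. The F-test of limma over the 4 stages called 93 of the 116 (80.2%), and it called 78.1% of all genes tested, so the share of varying members was near the background. The range between the highest and lowest stage mean had a median of 1.34 log2 units in the members and 1.47 in all genes, and it reached a 2-fold difference in 80 members.

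**Figure D2:**
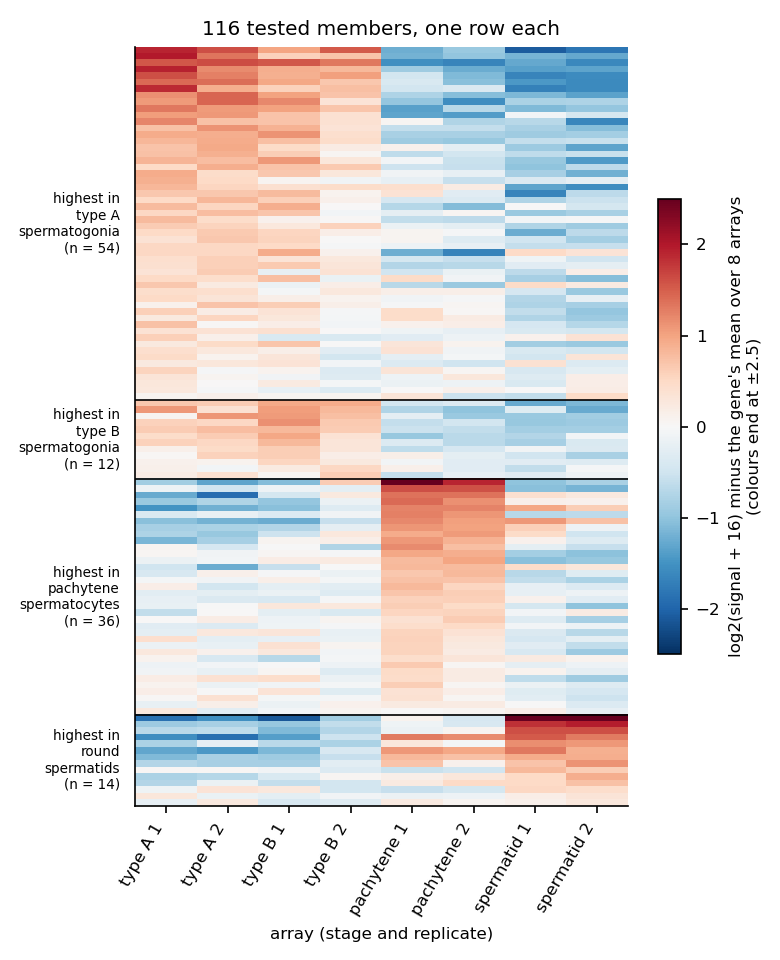
Each row is 1 of the 116 tested members and each column 1 array, with colour for log2(signal + 16) minus the gene's mean over the 8 arrays. Rows are grouped by the stage of the highest mean (54, 12, 36 and 14 members from top to bottom). The first 2 blocks share high values on the left, and the column of type B replicate 2 is paler than that of replicate 1 in the upper blocks.

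Zfp266, Zfp346, Zfp541 and Zfp558 show the main courses. Zfp266 encodes a KRAB zinc finger protein whose loss eases reprogramming of mouse fibroblasts to pluripotency, and its signals were 463 and 487 in type A spermatogonia, 459.9 and 386 in type B spermatogonia, 39.7 and 35.7 in pachytene spermatocytes and 51.2 and 37.4 in round spermatids. All 4 spermatogonial arrays lay far above all 4 later arrays. Zfp346 encodes a zinc finger protein that binds double-stranded RNA, and its signals were 285 and 216 in type A spermatogonia, 285 and 262 in type B spermatogonia, 992 and 976 in pachytene spermatocytes and 143 and 131 in round spermatids. It was high in both pachytene preparations only, and each other stage stayed below them without overlap. Zfp541 encodes a protein that works with histone deacetylases in spermatocytes and is needed to complete meiotic prophase in mice. Its signals were 147 and 113 in type A spermatogonia, 168 and 318 in type B spermatogonia, 1160.3 and 1069 in pachytene spermatocytes and 1366 and 1153 in round spermatids, so it was high in both later stages. Zfp558 had 26.6 and 29 in type A spermatogonia, 25.2 and 35.9 in type B spermatogonia, 58 and 44.4 in pachytene spermatocytes and 266 and 296 in round spermatids, and only the spermatid arrays passed 100.

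Zfp266 fell by 3.03 ± 0.20 log2 units in pachytene spermatocytes against type B spermatogonia (limma, adjusted p = 7.49e-05). Zfp346 was higher by 1.79 ± 0.20 in the same comparison (adjusted p = 0.000274) and fell by 2.71 ± 0.20 in spermatids against pachytene cells (adjusted p = 6.71e-05). Zfp541 was higher by 2.19 ± 0.29 in pachytene cells against type B cells (adjusted p = 0.000547), and spermatids differed from pachytene cells by 0.17 ± 0.29, which was not called (adjusted p = 0.711). Zfp558 was higher by 2.15 ± 0.21 in spermatids against pachytene cells (adjusted p = 0.000184). These 5 calls were kept whichever of the 8 arrays was left out and under each other setting tried.

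The promoters of these 4 members are shown because their transcripts take different courses, 1 for each pattern. Only the first start listed for a gene was used. Each run covers the window from 250 bases before to 50 bases after the gene's start, read 5′ to 3′ on the gene's strand, from RefSeq on GRCm38.p6. Capitals mark exact matches, on either strand, to 6 motifs: the cyclic AMP response element TGACGTCA, the TATA box TATAAA, the NRF1 core GCATGCGC, the CCAAT box, the ETS site CCGGAAGT and the GC box GGGCGG. The windows are chr9:20521370-20521669 on the minus strand for Zfp266, chr13:55105072-55105371 on the plus strand for Zfp346, chr7:16071595-16071894 on the plus strand for Zfp541 and chr9:18473596-18473895 on the minus strand for Zfp558.
Zfp266: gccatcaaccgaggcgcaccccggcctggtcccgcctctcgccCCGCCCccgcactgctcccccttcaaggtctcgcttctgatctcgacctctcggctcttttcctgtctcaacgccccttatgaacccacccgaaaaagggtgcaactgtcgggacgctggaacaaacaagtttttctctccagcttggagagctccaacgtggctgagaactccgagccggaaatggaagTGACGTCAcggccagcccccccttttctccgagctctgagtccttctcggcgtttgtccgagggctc
Zfp346: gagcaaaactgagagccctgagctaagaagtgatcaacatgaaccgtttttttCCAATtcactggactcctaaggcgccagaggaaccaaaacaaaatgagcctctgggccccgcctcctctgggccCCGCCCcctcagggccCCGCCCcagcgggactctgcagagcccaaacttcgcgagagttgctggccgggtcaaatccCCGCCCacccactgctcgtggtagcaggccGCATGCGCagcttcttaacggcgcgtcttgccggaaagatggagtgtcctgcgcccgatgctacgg
Zfp541: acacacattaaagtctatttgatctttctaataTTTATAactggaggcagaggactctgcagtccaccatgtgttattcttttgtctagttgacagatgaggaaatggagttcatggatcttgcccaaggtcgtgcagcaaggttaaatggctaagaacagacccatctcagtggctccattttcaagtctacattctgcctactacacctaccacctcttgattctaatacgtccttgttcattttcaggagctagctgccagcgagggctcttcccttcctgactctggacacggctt
Zfp558: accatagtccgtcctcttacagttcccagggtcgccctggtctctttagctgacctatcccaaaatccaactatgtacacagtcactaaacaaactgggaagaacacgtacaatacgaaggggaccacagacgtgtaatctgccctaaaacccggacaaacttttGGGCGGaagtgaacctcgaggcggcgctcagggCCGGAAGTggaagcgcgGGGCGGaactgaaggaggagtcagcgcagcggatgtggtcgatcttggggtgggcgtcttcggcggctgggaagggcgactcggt
Zfp266 holds 1 cyclic AMP response element and 1 GC box, Zfp346 holds 3 GC boxes, 1 CCAAT box and 1 NRF1 core, Zfp541 holds 1 TATA box, and Zfp558 holds 1 ETS site and 2 GC boxes. Base composition sets the window of Zfp541 apart from the other 3, with 44.7% G and C and an observed over expected CpG ratio of 0.27, against 57.0% to 61.3% and 0.726 to 0.912.

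Of the 130 members, 100 had a promoter in the RefSeq table. A CpG ratio of 0.6 or more was found in 68.0% of them. The share was 59.2% over 13268 protein-coding genes on the array and 36.5% over all 27025 genes in the table. Each gene counted with 1 promoter, that of its first listed start. By peak stage, that share was 64.7% of 51 members for type A spermatogonia, 58.3% of 12 for type B, 74.1% of 27 for pachytene spermatocytes and 80.0% of 10 for round spermatids. The ETS site was present in 14% of member promoters, against 6.37% of the array's protein-coding genes and 4.0% of all promoters. The cyclic AMP response element was present in 5.0%, against 2.74% and 1.88%, and the NRF1 core in 6.0%, against 4.45% and 2.8%. The GC box (51.0%, against 55.9% and 35.9%), the CCAAT box (40%, against 38.2% and 37.9%) and the TATA box (10.0%, against 9.68% and 14.2%) were closer to the array's genes. These are counts of letters in a window, with no test, and not counts of bound sites.

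No member differed between type B and type A spermatogonia by limma at an adjusted p under 0.05, and none of all genes did (0% called in either direction). At an unadjusted p under 0.05, 5 of 116 members were higher and 8 lower in type B spermatogonia. Among all 14145 genes tested, 786 were higher and 596 lower at that threshold. The members' smallest adjusted p was 0.455. The median change was -0.12 in the members and -0.0027 in all genes. The type B replicates decided this comparison: without replicate 1, 6 members were called higher (Zfp110, Zfp318, Zfp367, Zfp389, Zfp541 and Zfp574), with changes of 0.97 to 1.83 against 0.61 to 1.49 with all arrays. In that fit 8.09% of all genes were called higher and 1.4% lower, so the members' 6 of 116 lay below the background. All 6 were also called higher in pachytene spermatocytes against type B cells with all arrays, as 25.4% of all genes were. Their calls without replicate 1 rest on type B replicate 2 alone, the array with more pachytene and spermatid marker signal. The part of that signal was not tested. Without replicate 2 the median change was -0.03 in the members and 0.02 in all genes. Without replicate 1 these medians were -0.21 and -0.06. Zfp318 had 656 and 1071 in type B spermatogonia, against 364 and 228 in type A spermatogonia, without overlap, and its change was 1.49 ± 0.29. Its 5 probe sets above the filter disagreed in sign in this comparison, from -0.49 to 1.49.

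Between type B spermatogonia and pachytene spermatocytes the members split about evenly. Of 116, 30 were called higher in pachytene spermatocytes (25.4% of all genes tested were) and 35 lower (32.3% of all genes), and these shares of 25.9% and 30.2% are near the background. The median change was -0.08 in the members and -0.07 in all genes. Scaling decides the split: 36 higher and 27 lower with quantile normalization, 40 and 25 with centring on the 75th percentile, and 63 and 5 with centring on ribosomal protein genes. All genes ran alike, with 28.9% higher and 27.4% lower, 35.5% and 24.4%, and 57.1% and 9.73% under these 3 settings. The median change of all genes moved by 0.14, 0.32 and 1.08 log2 units under these settings. All 30 members called higher were called under each of them. Whichever array was left out, 13 of the 30 and 21 of the 35 kept their call. Peritubular and stromal markers were lower in 6 of 6 cases and Sertoli cell markers in 5 of 9, and their part in the lower calls was not tested. Without pachytene replicate 1 the median change was -0.14 in the members and -0.07 in all genes. Without pachytene replicate 2 these medians were 0.02 and -0.07.

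Among members higher in pachytene spermatocytes, Zfp389 and Zfp189 showed the steepest contrast beside Zfp541. Zfp389 had 25.1 and 14.3 in type A spermatogonia, 19.7 and 102 in type B spermatogonia, 415 and 267 in pachytene spermatocytes and 21.7 and 27.1 in round spermatids. Both pachytene arrays lay above all others, and the type B arrays were far apart. Its change was 2.43 ± 0.50, adjusted p = 0.00386. Zfp189 had 35.1 and 30.3 in type A spermatogonia, 28.5 and 54.8 in type B spermatogonia, 224 and 198 in pachytene spermatocytes and 208 and 158 in round spermatids, with no overlap between the later and the earlier stages, and its change was 2.02 ± 0.26, adjusted p = 0.000471.

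Zfp110 encodes NRIF, a KRAB zinc finger protein that binds the neurotrophin receptor p75. Its signals were 196 and 246 in type A spermatogonia, 276 and 466 in type B spermatogonia, 1407 and 1411 in pachytene spermatocytes and 1159 and 902 in round spermatids. Both pachytene arrays lay above all others, and the change was 1.93 ± 0.28, adjusted p = 0.0007. Its neighbour on chromosome 7, Zfp128, had 55.6 and 65 in type A spermatogonia, 53.6 and 106 in type B spermatogonia, 350.1 and 285 in pachytene spermatocytes and 133 and 131 in round spermatids. Its pachytene arrays were the highest, and its change was 1.85 ± 0.28, adjusted p = 0.000895.

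Zfp318, the testicular zinc finger gene, had 364 and 228 in type A spermatogonia, 656 and 1071 in type B spermatogonia, 2334 and 2309.6 in pachytene spermatocytes and 1188 and 1058 in round spermatids. Neighbouring stages did not overlap, and the change in pachytene against type B cells was 1.45 ± 0.29, adjusted p = 0.00357. Zfp574 had 349 and 313 in type A spermatogonia, 395 and 662 in type B spermatogonia, 1868 and 1734 in pachytene spermatocytes and 2226 and 1637 in round spermatids, high in both later stages, and its change was 1.78 ± 0.28, adjusted p = 0.000995. Zfp105 had 673 and 634 in pachytene spermatocytes, against 196 and 245 in type B spermatogonia, with a change of 1.51 ± 0.20, adjusted p = 0.000539. The calls of Zfp389, Zfp189, Zfp110, Zfp128, Zfp318, Zfp574 and Zfp105 were each kept whichever array was left out.

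Members lower in pachytene spermatocytes were led by Zfp266, described above, and by the X-linked Zfp275. Zfp275 had 795 and 646 in type A spermatogonia, 412 and 614 in type B spermatogonia, 77.8 and 97.7 in pachytene spermatocytes and 35.4 and 46.5 in round spermatids. Each later stage lay below all spermatogonial arrays, and the change in pachytene cells was -2.33 ± 0.25, adjusted p = 0.000249. Zfp566 had 15.6 and 5 in pachytene spermatocytes, against 126 and 61.8 in type B spermatogonia, with a change of -2.03 ± 0.33, adjusted p = 0.0012. Zfp292 had 591 and 347 in type A spermatogonia, 286 and 264 in type B spermatogonia, 70.3 and 52.3 in pachytene spermatocytes and 47 and 48 in round spermatids. It was lower in each stage mean than in the one before, and its pachytene change was -1.92 ± 0.27, adjusted p = 0.000617.

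Zfp516 encodes a factor known for brown fat gene activation, and it had 242 and 248 in type A spermatogonia, 187 and 147 in type B spermatogonia, 33.8 and 31.1 in pachytene spermatocytes and 102 and 76.5 in round spermatids. Spermatids lay between the pachytene and the spermatogonial arrays. Its change in pachytene cells was -1.91 ± 0.21, adjusted p = 0.000263. Zfp330 encodes a nucleolar zinc finger protein and had 457 and 456 in type A spermatogonia, 609.5 and 339 in type B spermatogonia, 125 and 87.4 in pachytene spermatocytes and 447 and 403 in round spermatids. It was low in the pachytene preparations only, with changes of -1.97 ± 0.29, adjusted p = 0.00082 in pachytene against type B cells and 1.87 ± 0.29, adjusted p = 0.00182 in spermatids against pachytene cells. The lower calls of Zfp266, Zfp275, Zfp566, Zfp292, Zfp516 and Zfp330 were kept whichever array was left out. Of all 35 lower calls, those of Zfp266, Zfp275, Zfp292, Zfp362 and Zfp516 were also kept under centring on ribosomal protein genes, and the others were not.

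**Figure D3:**
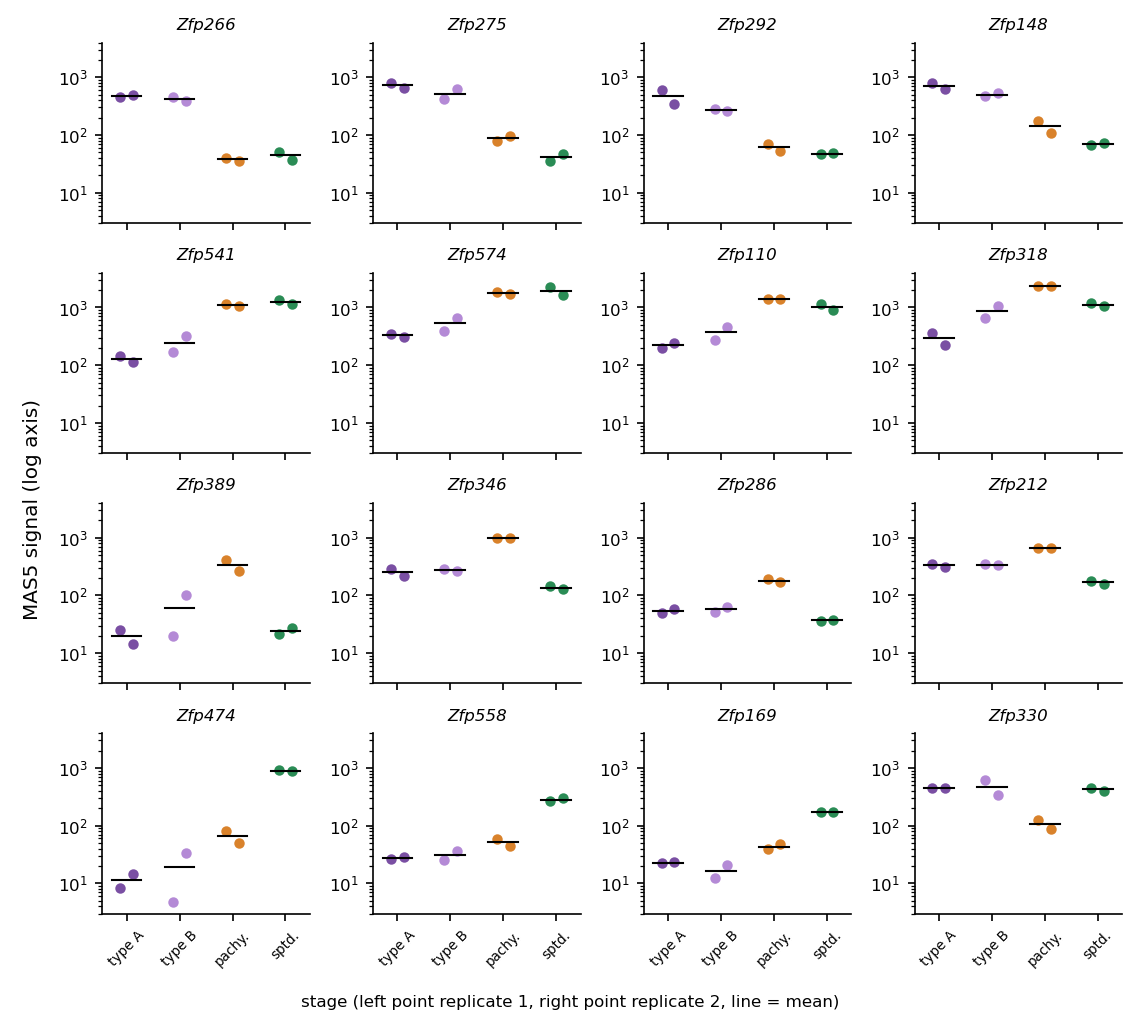
Signals of 16 members, 1 panel each, on a log axis, with 2 points for the 2 arrays of each stage and a line at their mean. The top row falls after the spermatogonial stages, the second row is high in the later stages, the third row peaks in pachytene spermatocytes, and the bottom row holds 3 members high in round spermatids and Zfp330, which is low in pachytene spermatocytes.

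In round spermatids against pachytene spermatocytes, lower members outnumbered higher ones with all arrays, and by much less without pachytene replicate 1. Of 116 members, 10 were called higher (15.7% of all genes tested were) and 39 lower (19% of all genes), which is 8.62% and 33.6% of the members. The median change was -0.41 in the members and -0.06 in all genes. Centring on ribosomal protein genes gave 8 higher and 16 lower, and the medians there were -0.34 and 0.01. Among the 168 other numbered Zfp genes tested, 17 were higher and 42 lower, with a median of -0.27. The lower count rests on borderline calls. Without pachytene replicate 1 there were 8 higher and 12 lower members, against 11.4% and 9.67% of all genes, so the lower members were near the background. Lower members numbered 14 without spermatid replicate 2 (9.59% of all genes were lower), 24 without pachytene replicate 2 (10.6%) and 22 without spermatid replicate 1 (11.7%). Leydig cell markers (4 of 6 on the array, none listed at 0) were lower in 4 of 4 cases here, with sums of 88.5 and 88.8 in spermatids, against 517 and 945 in pachytene cells, and Sertoli cell markers were lower in 4 of 9. Their part in the lower calls was not tested. Whichever array was left out, 10 of the 39 and 6 of the 10 kept their call. The median change was -0.45 in the members and -0.05 in all genes without pachytene replicate 2. These medians were -0.42 and -0.04 without spermatid replicate 1, and -0.35 and -0.10 without pachytene replicate 1. Without spermatid replicate 2 they were -0.41 and -0.09.

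Of the 6 members that fell most in spermatids, 5 had peaked in pachytene cells. A high pachytene mean is part of how these members were picked, so their peak stage is only described. Zfp389, at 21.7 and 27.1 in spermatids, fell by 3.11 ± 0.50 log2 units (adjusted p = 0.00211). Zfp472 had 57.9 and 62.5 in type A spermatogonia, 78.1 and 80.8 in type B spermatogonia, 127 and 148 in pachytene spermatocytes and 24 and 26.6 in round spermatids. Its spermatid arrays were below all others, and its change against pachytene cells was -1.89 ± 0.18, adjusted p = 0.000177. Zfp212 had 351 and 315 in type A spermatogonia, 349.6 and 330 in type B spermatogonia, 672 and 650.2 in pachytene spermatocytes and 181 and 158 in round spermatids, the same order of stages, and a change of -1.87 ± 0.18, adjusted p = 0.000191.

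Zfp286 had 49.4 and 59.2 in type A spermatogonia, 51.7 and 64.2 in type B spermatogonia, 189 and 168 in pachytene spermatocytes and 36.8 and 38 in round spermatids. It stood out in both pachytene arrays and changed by -1.86 ± 0.19, adjusted p = 0.000254 in spermatids. Zfp251 differed from these because it had not risen before: it had 256 and 208 in type A spermatogonia, 187 and 196 in type B spermatogonia, 189 and 161 in pachytene spermatocytes and 45.8 and 36.5 in round spermatids. Its spermatid arrays alone were low, and the change against pachytene cells was -1.74 ± 0.20, adjusted p = 0.000432. These calls of Zfp389, Zfp472, Zfp212, Zfp286 and Zfp251 were kept whichever array was left out.

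Few members appeared late. Zfp474, a testis-enriched gene, had 8.4 and 14.8 in type A spermatogonia, 4.7 and 33 in type B spermatogonia, 79.5 and 51 in pachytene spermatocytes and 922 and 879 in round spermatids. Both spermatid arrays were far above all others, and the change against pachytene cells was 3.52 ± 0.39, adjusted p = 0.000332, the largest rise of any member in this comparison. Zfp169 had 22.2 and 23.4 in type A spermatogonia, 12.2 and 20.9 in type B spermatogonia, 39.1 and 47.6 in pachytene spermatocytes and 171 and 169.7 in round spermatids. It too was highest in both spermatid arrays, with a change of 1.65 ± 0.20, adjusted p = 0.000573. Zfp526 had 143 and 134 in round spermatids, against 70.1 and 52.6 in pachytene spermatocytes, with a change of 1.01 ± 0.24, adjusted p = 0.0139 that was lost without pachytene replicate 2 or either spermatid replicate (changes of 0.85 to 1.17 over the fits that left out 1 array).

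Zfp239, also called Mok2, encodes a protein that binds RNA and DNA. Its signals were 114 and 114 in type A spermatogonia, 104 and 84.4 in type B spermatogonia, 70.2 and 74.3 in pachytene spermatocytes and 208 and 179 in round spermatids. The spermatid arrays were the highest, and the change against pachytene cells was 1.24 ± 0.19, adjusted p = 0.00168. Zfp458 had 68.9 and 54.9 in round spermatids, against 21.5 and 16 in pachytene spermatocytes, with a change of 1.16 ± 0.24, adjusted p = 0.00643, which missed the threshold without pachytene replicate 2 or spermatid replicate 1 (adjusted p = 0.0523 to 0.0529).

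Over the whole course, from type A spermatogonia to round spermatids, the members fell more often than they rose. In round spermatids, 18 members were called higher (28% of all genes tested were) and 60 lower (41.6% of all genes), which is 15.5% and 51.7% of the members. The median change was -0.65 in the members and -0.31 in all genes. Scaling decides how far this goes, and it turns the balance under ribosomal centring: 26 higher and 47 lower with quantile normalization, 27 and 40 with the 75th percentile, and 29 and 19 with ribosomal centring, where the all-gene median moved by 0.83. All genes had 32.3% higher and 34.5% lower, 36.9% and 29.6%, and 43% and 16.3% under these settings. Whichever array was left out, 46 of the 60 and 14 of the 18 kept their call. Over the same comparison, 6 of 6 peritubular and stromal markers, 8 of 9 Sertoli cell markers and 4 of 4 Leydig cell markers were lower, and their part in the members' falls was not tested. The other numbered Zfp genes had 38 higher and 80 lower of 168, with a median of -0.53.

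**Figure D4:**
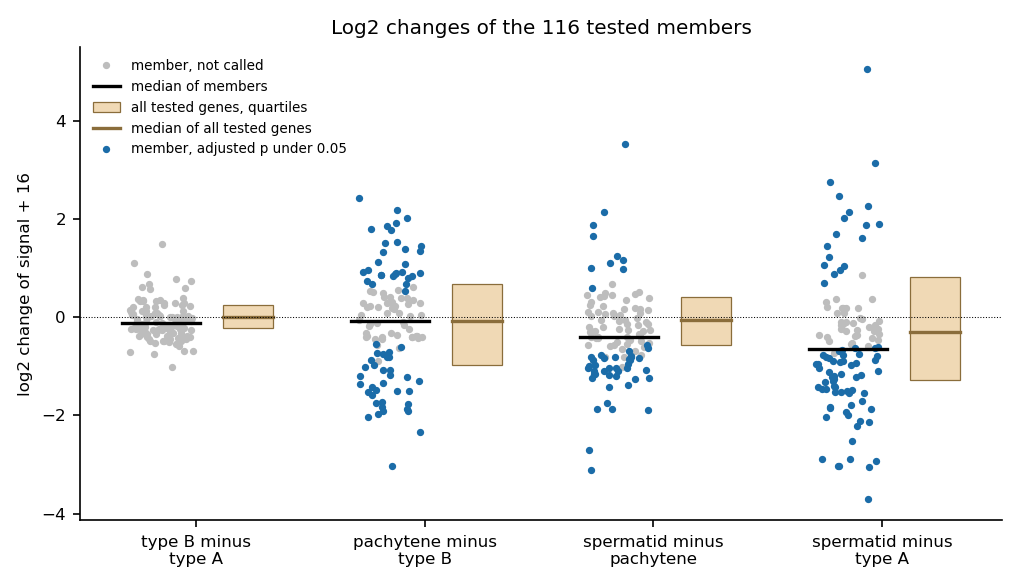
Points are the log2 changes of the 116 tested members in 4 comparisons, with called members in blue and a black line at the members' median. The box to the right of each group gives the quartiles and median of all tested genes. The members' median lies below that of all genes in round spermatids against pachytene spermatocytes (-0.41 and -0.06) and against type A spermatogonia (-0.65 and -0.31).

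Zfp474 (change 5.06 ± 0.39, adjusted p = 2.29e-05), Zfp541 (3.13 ± 0.29, adjusted p = 5.3e-05) and Zfp558 (2.76 ± 0.21, adjusted p = 2.19e-05) were the members that rose most between these end points. Zfp574 (2.48 ± 0.28, adjusted p = 0.000117), Zfp169 (2.26 ± 0.20, adjusted p = 4.39e-05) and Zfp110 (2.14 ± 0.28, adjusted p = 0.000237) followed. The largest falls were those of Zfp275 (-3.69 ± 0.25, adjusted p = 1.59e-05), Zfp148 (-3.05 ± 0.25, adjusted p = 3.08e-05), Zfp266 (-3.03 ± 0.20, adjusted p = 1.49e-05) and Zfp395 (-3.02 ± 0.30, adjusted p = 6.52e-05). Zfp395 had 229 and 110.4 in type A spermatogonia, 85.2 and 97.2 in type B spermatogonia, 33.2 and 36.8 in pachytene spermatocytes and 4.8 and 6.5 in round spermatids, and its spermatid arrays were near the bottom of the scale. Zfp267 had 19.2 and 15.4 in round spermatids, against 238 and 233 in type A spermatogonia, with a change of -2.92 ± 0.26, adjusted p = 3.92e-05. These 11 calls were kept whichever array was left out.

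Calls were also combined over the 3 comparisons that had any. These combinations were not counted over all genes, so whether members show them more often than other genes is not known. In all, 22 members were lower in pachytene cells and lower in spermatids against type A, with no call between pachytene cells and spermatids. Whichever array was left out, 13 of the 22 kept both calls. Another 15 were called lower in spermatids against both earlier stages and not between type B and pachytene cells. Of these, 3 kept both calls without pachytene replicate 1, 4 without spermatid replicate 2, 8 without pachytene replicate 2 and 9 without spermatid replicate 1, and Zfp251 and Zfp287 kept them whichever array was left out. A transient pachytene rise, called higher against type B cells and lower in spermatids, was seen in 15 members: 8 with no call between the end points, 4 with spermatids below type A (Zfp212, Zfp346, Zfp407 and Zfp472) and 3 with spermatids above type A (Zfp128, Zfp318 and Zfp367). Of the 15, 5 kept both calls without pachytene replicate 1, 8 without spermatid replicate 2, 9 without pachytene replicate 2 and 9 without spermatid replicate 1, and Zfp212, Zfp286, Zfp346 and Zfp389 kept them whichever array was left out. Under ribosomal centring Zfp212, Zfp346, Zfp407 and Zfp472 were not called against type A, with Zfp407 at 0.20 and Zfp346 at 0.04. Some probe sets of these transient members disagreed in sign. They ran from -1.08 to 0.29 for Zfp367 in spermatids against pachytene cells and from -0.88 to 1.90 for Zfp318 in spermatids against type A. For Zfp523 they ran from -0.03 to 0.92 in pachytene against type B cells. Another 9 were higher in pachytene cells and in spermatids against type A. Zfp169, Zfp474 and Zfp526 were called higher in both later steps, and 18 members had no call in any comparison. Each of those 3 lost the first of its calls in some fits: Zfp169 without pachytene replicate 2 (adjusted p = 0.0542), Zfp474 without type B replicate 1 or pachytene replicate 1 (0.0609 and 0.113, with changes of 0.71 to 1.95 over the fits that left out 1 array) and Zfp526 without pachytene replicate 1 (0.118).

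Some members were named because their highest mean fell in a spermatogonial stage. Lower means in the later stages follow from that choice, and only their sizes are described. Zfp462, a large zinc finger protein of pluripotency and heterochromatin control, had 487 and 309 in type A spermatogonia, 174 and 192 in type B spermatogonia, 40.1 and 48.5 in pachytene spermatocytes and 41.1 and 36.8 in round spermatids. It is the 1 member whose type A mean exceeded the next stage by 1 log2 unit, although type B against type A was not called (-1.02 ± 0.24, adjusted p = 0.489). Zfp579 had 132 and 96.6 in type A spermatogonia, 68 and 59.6 in type B spermatogonia, 53 and 38 in pachytene spermatocytes and 46.7 and 52.1 in round spermatids, with the type A arrays highest. Zfp410, an activator of the remodeller gene Chd4, had 363 and 346 in type A spermatogonia, 540.5 and 385 in type B spermatogonia, 152 and 169 in pachytene spermatocytes and 116 and 119 in round spermatids. Its spermatogonial arrays lay above the later ones, and its pachytene change was -1.42 ± 0.21, adjusted p = 0.000845. Zfp383 had 49.3 and 55.3 in pachytene spermatocytes, against 159 and 157 in type B spermatogonia, with a change of -1.35 ± 0.18, adjusted p = 0.000498. Zfp398 had 73.9 and 61.4 in pachytene spermatocytes, against 119 and 94.6 in type B spermatogonia, a change of -0.55 ± 0.19, adjusted p = 0.0393 that was lost in 7 of the 8 fits that each left out 1 array (changes of -0.70 to -0.41) and turned to 0.53 under ribosomal centring.

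Among regulators known in germ cells or cell division, Zfp541 and Zfp318 rose and Zfp148 and Zfp207 fell over the course. Zfp148, a promoter-binding factor also called ZBP-89, had 790.3 and 621 in type A spermatogonia, 474 and 526 in type B spermatogonia, 176 and 108 in pachytene spermatocytes and 68.2 and 72.8 in round spermatids. Every later array lay below every spermatogonial one, and the pachytene change was -1.74 ± 0.25, adjusted p = 0.000742. Zfp207, or BuGZ, a spindle assembly protein, had 777 and 1177 in type A spermatogonia, 1110.1 and 795 in type B spermatogonia, 704 and 739 in pachytene spermatocytes and 412 and 396 in round spermatids. Only the spermatids stood apart, with a change against type A of -1.21 ± 0.26, adjusted p = 0.00308. The calls in spermatids against pachytene cells of Zfp318 (-1.04 ± 0.29), Zfp148 (-0.83 ± 0.25) and Zfp207 (-0.81 ± 0.26) were each lost without spermatid replicate 1, spermatid replicate 2 or pachytene replicate 1, with adjusted p = 0.0848 to 0.14, 0.12 to 0.231 and 0.129 to 0.161 over the arrays whose omission lost them. Those of Zfp318 and Zfp207 were also lost without pachytene replicate 2. Some probe sets of Zfp318 and Zfp207 disagreed in sign (spermatids against type A from -0.88 to 1.90 for Zfp318, spermatids against pachytene cells from -0.81 to 0.20 for Zfp207). Zfp365 was not tested, with signals between 3.6 and 25.5.

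Of 6 members with roles in RNA binding, translation or protein modification, 4 were lower and 1 higher in spermatids against type A spermatogonia, where 41.6% and 28% of all genes were. Zfp346 is described above, and its small fall against type A (-0.79 ± 0.20, adjusted p = 0.00747) turned to 0.04 under ribosomal centring. Zfp326, of the DBIRD complex that links splicing and elongation, had 79.2 and 65.1 in round spermatids, against 226 and 214 in type A spermatogonia, with a change of -1.42 ± 0.33, adjusted p = 0.00463. Its call against pachytene cells (-1.15 ± 0.33, adjusted p = 0.0267) was lost without pachytene replicate 1 or either spermatid replicate (adjusted p = 0.0797 to 0.169). Zfp598, the ubiquitin ligase that marks collided ribosomes, had 302 and 277 in round spermatids, against 429 and 378 in type A spermatogonia and no call in any comparison.

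Zfp106, an RNA-binding protein, had 85.7 and 76.4 in round spermatids, against 249.6 and 234 in type A spermatogonia, with a change of -1.41 ± 0.19, adjusted p = 0.00032, but its 3 probe sets ran from -1.41 to 0.42. Its pachytene change of -0.62 ± 0.19 turned to 0.47 under ribosomal centring, and its spermatid change against pachytene cells of -0.62 ± 0.19 turned to 0.64 with the median of its probe sets. Both calls were lost without either pachytene replicate (adjusted p = 0.081 to 0.118 and 0.0525 to 0.178 over all arrays whose omission lost them). Zfp451, a SUMO ligase, had 192 and 146 in pachytene spermatocytes, against 626 and 329 in type B spermatogonia, with a change of -1.36 ± 0.32, adjusted p = 0.00743 that was lost without pachytene replicate 2 (adjusted p = 0.0537). Its fall in spermatids against type A (-0.89 ± 0.32, adjusted p = 0.0366) was lost without any 1 of those 4 arrays (adjusted p = 0.0515 to 0.196), and its probe sets ran from -1.78 to 1.16. Zfp239 was the member of this list higher in spermatids against type A (0.69 ± 0.19, adjusted p = 0.0119), and without spermatid replicate 1 the adjusted p was 0.0751.

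Of 7 tested KRAB proteins with a known role, 1 was higher (Zfp110) and 4 lower in spermatids against type A spermatogonia (14.3% and 57.1%). In all genes tested these shares were 28% and 41.6%, and 7 genes are too few to compare with them. Zfp568, which represses a placental promoter of Igf2 in mouse embryos, had 156 and 174 in type A spermatogonia, 179 and 158 in type B spermatogonia, 60.7 and 56.9 in pachytene spermatocytes and 46 and 45.6 in round spermatids. Both later stages lay below the spermatogonia, and the pachytene change was -1.30 ± 0.18, adjusted p = 0.000621. Zfp445, which helps keep genomic imprints, had 587 and 439 in type A spermatogonia, 491 and 372 in type B spermatogonia, 532 and 389 in pachytene spermatocytes and 244 and 189 in round spermatids. Its spermatid arrays were lowest, with a change against type A of -1.18 ± 0.26, adjusted p = 0.00385, although its probe sets ran from -1.18 to 0.17. The change against pachytene cells (-1.03 ± 0.26, adjusted p = 0.0169) was lost without pachytene replicate 1 or spermatid replicate 2 (adjusted p = 0.12 to 0.124).

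Zfp369, like Zfp110 a p75 neurotrophin receptor partner, had 107 and 73.4 in type A spermatogonia, 87.1 and 62.7 in type B spermatogonia, 44.7 and 40.6 in pachytene spermatocytes and 20.3 and 12.3 in round spermatids, lowest in spermatids, with a change against type A of -1.71 ± 0.25, adjusted p = 0.000421. Its change against pachytene cells (-0.87 ± 0.25) was lost without either pachytene or either spermatid array (adjusted p = 0.0506 to 0.168). Zfp202 had 102 and 103 in type A spermatogonia, 109 and 97.1 in type B spermatogonia, 212 and 200.5 in pachytene spermatocytes and 107 and 113 in round spermatids. It was high in both pachytene arrays only, with changes of 0.90 ± 0.18, adjusted p = 0.00311 against type B cells and -0.82 ± 0.18, adjusted p = 0.00853 in spermatids against pachytene cells, the second lost without pachytene replicate 1 or spermatid replicate 1 (adjusted p = 0.054 to 0.0654). Zfp263 had 218 and 191 in round spermatids, against 259 and 219 in type A spermatogonia and no call in any comparison.

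The 12 tested chromatin, pluripotency and promoter factors held 10 that were lower in spermatids than in type A spermatogonia and 0 that were higher. In all genes tested, 41.6% were lower. The list's median change was -1.26, and the all-gene median was -0.31. The list was chosen with earlier results of these data known, so its gap from all genes is only described. Under ribosomal centring Zfp281, Zfp292, Zfp462 and Zfp532 kept the call, Zfp219 turned in sign, and the other 5 were lower without a call. Zfp281, a repressor and activator known in pluripotent cells, had 622 and 736 in type A spermatogonia, 530.5 and 436 in type B spermatogonia, 407 and 314 in pachytene spermatocytes and 193 and 140.5 in round spermatids. The spermatid arrays were lowest, and its change against type A was -1.94 ± 0.24, adjusted p = 0.000188. Zfp532 and Zfp592 encode partner proteins, but they did not run together. Zfp532 had 266 and 334 in type A spermatogonia, 239.8 and 192 in type B spermatogonia, 58.5 and 44.8 in pachytene spermatocytes and 43 and 34.2 in round spermatids, and fell by 2.53 ± 0.22 (adjusted p = 4.06e-05). Zfp592 had 149 and 101 in type A spermatogonia, 79.5 and 133 in type B spermatogonia, 193 and 174 in pachytene spermatocytes and 165 and 148 in round spermatids, and its pachytene change of 0.74 ± 0.27, adjusted p = 0.0443 was lost without type B replicate 1, either pachytene array or either spermatid array (adjusted p = 0.0698 to 0.209).

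Zfp335, a neural progenitor and T cell factor, was lower in spermatids (-1.20 ± 0.27, adjusted p = 0.00394). Zfp217, a partner of the CoREST and LSD1 repressors (-0.83 ± 0.25, adjusted p = 0.0164), Zfp131 (-0.94 ± 0.28, adjusted p = 0.0155) and Zfp219, a Sox9 partner (-0.68 ± 0.19, adjusted p = 0.0124), were called with all arrays and lost the call without certain ones. Zfp217 lost it without type A replicate 1 or spermatid replicate 2 (adjusted p = 0.0764 to 0.119), Zfp131 without type A replicate 2 or spermatid replicate 2 (0.0975 to 0.103), and Zfp219 without type A replicate 1 or spermatid replicate 1 (0.0573 to 0.0743). The value of Zfp219 under ribosomal centring was 0.15. Zfp384 had 549 and 439 in round spermatids, against 480.3 and 449.5 in type A spermatogonia, with no call in any comparison, and was the other exception in the list beside Zfp592. Zfp292, Zfp410, Zfp462 and Zfp516, given above, make up the rest.

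The 5 developmental regulators had signals of at most 147, and each of their pachytene calls was lost without 1 or more arrays. Zfp423, a fat precursor factor, had 132 and 147 in pachytene spermatocytes, against 38.2 and 76.8 in type B spermatogonia, with a change of 1.13 ± 0.36, adjusted p = 0.0277, lost without type B replicate 1 or either pachytene array (adjusted p = 0.0807 to 0.124). Its relative Zfp521 had 17.3 and 22.9 in pachytene spermatocytes, against 63.3 and 47.9 in type B spermatogonia, with a change of -0.98 ± 0.23, adjusted p = 0.00639, lost without pachytene replicate 1 (adjusted p = 0.0503) and turned to 0.10 under ribosomal centring. Zfp503, known in the striatum, had 43.7 and 21.4 in pachytene spermatocytes, against 133 and 104 in type B spermatogonia, with a change of -1.50 ± 0.36, adjusted p = 0.00814, lost without pachytene replicate 2 (adjusted p = 0.0627). Zfp467 had 20.3 and 17 in pachytene spermatocytes, against 46.5 and 43.7 in type B spermatogonia, with a change of -0.82 ± 0.20, adjusted p = 0.00924, lost without pachytene replicate 2 (adjusted p = 0.0621) and turned to 0.26 under ribosomal centring. The neural regulator Zfp536 had signals between 18.6 and 52.4 and no call.

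The corepressor genes that KRAB members depend on did not all follow one course. The list held 24 genes, of which 22 were tested. In pachytene spermatocytes against type B spermatogonia 2 were higher and 9 lower (25.4% and 32.3% of all genes were). In spermatids against pachytene cells 2 were higher and 8 lower (15.7% and 19% of all genes), and against type A spermatogonia 4 were higher and 14 lower (28% and 41.6%). Their median changes were -0.15, -0.46 and -1.10, each below that of all genes. This list too was chosen with earlier results of these data known. Trim28, the corepressor that KRAB domains bind, had 2188 and 2161 in type A spermatogonia, 2525 and 2238 in type B spermatogonia, 3059.9 and 3083 in pachytene spermatocytes and 2598 and 2335 in round spermatids. All 8 arrays lay within a narrow band, and no comparison was called. Setdb1, the histone methyltransferase it recruits, had 635 and 734 in type A spermatogonia, 719.5 and 414 in type B spermatogonia, 520.3 and 449 in pachytene spermatocytes and 272 and 275 in round spermatids. Spermatids were lowest, with a change against type A of -1.27 ± 0.27, adjusted p = 0.00307.

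The heterochromatin protein 1 genes differed. Cbx5 had 176 and 159 in round spermatids, against 461 and 384 in type A spermatogonia, a change of -1.25 ± 0.23, adjusted p = 0.00141, which turned to 0.15 with the median of its probe sets. Cbx1 had 262 and 236 in round spermatids, against 663 and 731 in type A spermatogonia, a change of -1.43 ± 0.24, adjusted p = 0.000978. Cbx3 had 81.6 and 80.9 in round spermatids, against 46.3 and 54.9 in type A spermatogonia, a change of 0.55 ± 0.18, adjusted p = 0.027 that was lost without type A replicate 1 or either spermatid array (adjusted p = 0.0886 to 0.118). The deacetylase genes Hdac1 and Hdac2, whose proteins work with that of Zfp541, moved apart, with opposite signs under each scaling, although the call of Hdac1 was lost with quantile normalization (adjusted p = 0.0541) and that of Hdac2 with ribosomal centring (adjusted p = 0.263). Hdac1 had 754 and 810.5 in type A spermatogonia, 924 and 901 in type B spermatogonia, 1557 and 1519.5 in pachytene spermatocytes and 1508 and 1472 in round spermatids, and was higher by 0.74 ± 0.17, adjusted p = 0.00709 in pachytene cells. Hdac2 had 1173 and 1237 in type A spermatogonia, 1145 and 835 in type B spermatogonia, 350.5 and 309 in pachytene spermatocytes and 424 and 358 in round spermatids, and its change was -1.53 ± 0.22, adjusted p = 0.000707.

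The de novo DNA methyltransferase genes were highest in spermatogonia. Dnmt3a had 494 and 393 in type A spermatogonia, 312 and 437 in type B spermatogonia, 41.7 and 45 in pachytene spermatocytes and 48 and 40.3 in round spermatids. Dnmt3b had 818 and 1046 in type A spermatogonia, 936 and 463 in type B spermatogonia, 115 and 99.8 in pachytene spermatocytes and 128 and 88.3 in round spermatids. All 4 later arrays lay below all 4 spermatogonial arrays for both genes, with pachytene changes of -2.70 ± 0.23, adjusted p = 0.000116 for Dnmt3a and -2.46 ± 0.34, adjusted p = 0.000582 for Dnmt3b. The remodeller gene Smarcad1 had 79.3 and 62.8 in pachytene spermatocytes, against 375 and 228 in type B spermatogonia and changed by -1.83 ± 0.26, adjusted p = 0.000625. The HUSH complex, which silences transposons with SETDB1, held both kinds: Mphosph8 changed by -1.42 ± 0.25, adjusted p = 0.00304 and Tasor by -1.31 ± 0.32, adjusted p = 0.0151 in spermatids against pachytene cells, and Pphln1 rose. Pphln1 had 239 and 345 in type A spermatogonia, 430.1 and 287 in type B spermatogonia, 102 and 83.5 in pachytene spermatocytes and 1214 and 1363 in round spermatids, low in pachytene cells and highest in spermatids, with changes of -1.76 ± 0.27, adjusted p = 0.000884 and 3.58 ± 0.27, adjusted p = 6.73e-05. The call of Tasor was lost without pachytene replicate 1 or either spermatid array (adjusted p = 0.0656 to 0.112).

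Zfp57, a KRAB zinc finger protein of imprint maintenance outside the numbered range, had 6 and 6.6 in type A spermatogonia, 7.7 and 4.6 in type B spermatogonia, 3.7 and 9.1 in pachytene spermatocytes and 61.8 and 102 in round spermatids. Its spermatid arrays stood far above the other 6, with a change of 2.11 ± 0.25 against pachytene cells. Only its spermatid arrays lay above the array median, so it passed the filter through the group where it was high. Its change is therefore only described, although it is among the genes counted higher in spermatids above. Morc3, an ATPase of the SETDB1 pathway, had 354 and 243 in round spermatids, against 905 and 752 in pachytene spermatocytes and changed by -1.44 ± 0.25, adjusted p = 0.00327. Resf1, a SETDB1 partner in retrotransposon silencing, had 471 and 376 in type A spermatogonia, 235 and 188 in type B spermatogonia, 104 and 110.3 in pachytene spermatocytes and 45.9 and 46.1 in round spermatids. Each stage mean was below the one before, and the change in spermatids against type A was -2.82 ± 0.20, adjusted p = 1.86e-05. The other calls in the list included the falls of Dnmt1 (-1.87 ± 0.27), Chd3 (-1.29 ± 0.19), Chd4 (-0.94 ± 0.24) and Morc2a (-0.94 ± 0.24) in spermatids against type A, the fall of Uhrf1 in spermatids against pachytene cells (-0.69 ± 0.23) and the rise of Atf7ip in pachytene cells (0.61 ± 0.20). Among these, Chd4 lost its call without spermatid replicate 2 (adjusted p = 0.061), Uhrf1 without either type A array, either pachytene array or spermatid replicate 2 (0.0602 to 0.267), and Atf7ip without any 1 array of the groups compared (0.0514 to 0.124).

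**Figure D5:**
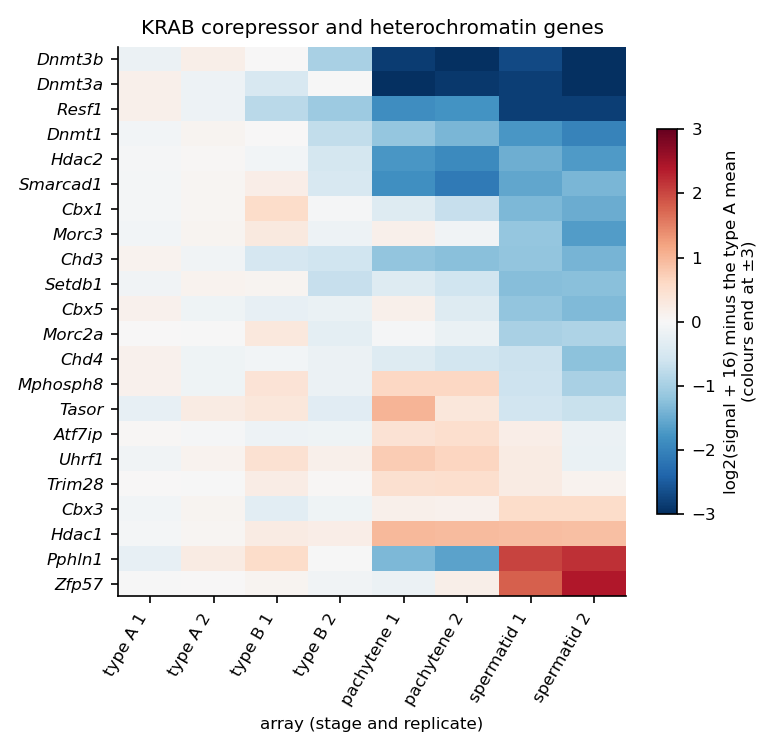
Each row is 1 of the 22 tested corepressor and heterochromatin genes and each column 1 array, with colour for log2(signal + 16) minus the mean of the 2 type A arrays. Dnmt3b, Dnmt3a and Resf1 are lowest in the later stages, Trim28 stays pale throughout, and Pphln1 and Zfp57 are high in the 2 spermatid arrays.

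The members lie on chromosomes 1 to 18 and X, and 35 of the 130 (26.9%) lie on chromosome 7. Of the 28 tested members there, 9 were higher and 6 lower in pachytene cells against type B, and 7 were higher and 10 lower in spermatids against type A. Among all genes these shares were 25.4% and 32.3%, and 28% and 41.6%. Chromosome 13 held 12 members, chromosome 17 held 10, and chromosomes 9 and 18 held 8 each. All 3 tested X-linked members, Zfp185, Zfp275 and Zfp449, were called lower in pachytene cells and in spermatids against type A, where 32.3% and 41.6% of all genes were. Zfp185 had 154 and 166 in type A spermatogonia, 144 and 114 in type B spermatogonia, 35.7 and 33.4 in pachytene spermatocytes and 47.4 and 48.8 in round spermatids, and Zfp449 had 77.1 and 107 in type A spermatogonia, 91 and 86.7 in type B spermatogonia, 29.7 and 27.8 in pachytene spermatocytes and 16.7 and 25.8 in round spermatids. For Zfp185, a second probe set gave 0.29 in spermatids against type A.

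Among protein-coding genes of the gene table, 12 pairs of members lay next to each other, which involved 20 members. Both genes were tested in 7 of these pairs, and 2 of the 7 shared a peak stage: Zfp110 with Zfp128, both pachytene, and Zfp236 with Zfp516, both type A. Zfp287 and Zfp286 on chromosome 11 were unlike each other, with pachytene changes of 0.22 ± 0.22, not called, and 1.40 ± 0.19. Zfp282 and Zfp212 on chromosome 6 also differed, at -0.33 ± 0.25, not called, and 0.93 ± 0.18.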

How the data were processed

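The authors deposited MAS5 intensities, linear and 1 for each probe set of an array, with MAS5 named in the submitters' processing notes. Its version, detection calls and the build behind the annotation: not given in the sources used here. Values came scaled, with array medians of 33.7 to 51.9, and precision is limited by the number of arrays.

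Of 45101 probe sets, 34945 listed exactly 1 gene, 932 several and 9160 none, and 64 were controls. Symbols were updated by Entrez identifier from the GRCm38.p6 table of genes, where 34741 of the 34945 matched; it was used for names, chromosomes and neighbours. Each gene took the probe set whose mean over the 8 arrays was highest, and was tested when it lay above the array median on at least 2 arrays. log2(signal + 16) was fitted with limma 3.58.1 in R 4.3.3, with 1 mean per group (4 residual and 4.04 prior degrees of freedom). All tests were two-sided, with Benjamini-Hochberg adjustment over 14145 genes, within each comparison. The p-values measure the spread between preparations. The fit was tested on simulated data.

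The rule for the members uses symbols and no measured value. That rule, the role lists, partner list, motifs and comparisons were set with earlier results of these data known. Named members were, in each comparison, the 6 called with the largest rise and the 6 with the largest fall whose arrays did not overlap, for each stage the 4 varying members with the largest margin, and every gene of the lists. Zfp105, Zfp185, Zfp236, Zfp282, Zfp287, Zfp362, Zfp367, Zfp407, Zfp418, Zfp428, Zfp449, Zfp455, Zfp551 and Zfp560 fall outside that rule and were chosen after their values were seen. Zfp143, Zfp260, Zfp382 and Sumo2, which had no probe set of their own, were not analysed here. Alternatives were a pseudocount of 64, no filter, 3 other scalings, the median over probe sets, a replicate block and leaving out each array. Ribosomal centring used 43 genes. Promoters were matched with Python 3.11.15 by gene.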

Additional observations from a re-analysis of the deposited data

How the results depend on the processing

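With 2 arrays a group and no detection calls, changes of dim members and of members near the threshold are poorly resolved, and without any 1 array the lone array of a group is assumed to vary like the others. The F-test count stayed within 1.5 times of 93 under every alternative. Centring on the 75th percentile gave 36 members with their peak in type A spermatogonia and 27 in round spermatids. Centring on ribosomal protein genes gave 63 higher and 5 lower in pachytene spermatocytes against type B spermatogonia, 16 lower in round spermatids against pachytene spermatocytes, and 29 higher and 19 lower in round spermatids against type A spermatogonia, with peak counts of 32, 2, 60 and 36 in stage order; the all-gene median moved with it, as the report gives. The median over probe sets, with 103 members tested, gave 24 lower in round spermatids against pachytene spermatocytes.

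Leaving out 1 array at a time, calls higher in type B against type A spermatogonia ran from 0 to 6, calls in pachytene against type B from 16 to 31 higher and 23 to 37 lower, calls in round spermatids against pachytene from 6 to 11 higher and 12 to 44 lower, and members peaking in type B from 13 to 30. Over the same fits the median change of all genes ran from -0.06 to 0.04, from -0.14 to -0.03 and from -0.10 to -0.04 in these comparisons, in that order. The cause of these moves was not tested.

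Among called changes of named genes, signs turned under ribosomal centring for Zfp106 (0.47), Zfp219 (0.37), Zfp395 (0.013), Zfp398 (0.53), Zfp458 (0.27), Zfp521 (0.10), Zfp467 (0.26), Cbx1 (0.29), Chd3 (0.42), Dnmt1 (0.17) and Resf1 (0.20) in pachytene against type B cells, and for Zfp346 (0.04), Zfp219 (0.15), Zfp236 (0.067), Zfp407 (0.20), Zfp467 (0.027) and Mphosph8 (0.026) in spermatids against type A cells. With the median over probe sets they turned for Zfp106 in spermatids against pachytene cells (0.64), Cbx1 in pachytene against type B cells (0.36) and Cbx5 in spermatids against type A cells (0.15). Over the gene changes that were recomputed one by one under each setting, which do not include these changes of Zfp236, Zfp395, Zfp398, Zfp407 and Zfp458, 3396 values kept direction and side of the threshold, 208 lost a call, 77 gained one and 15 turned in sign.

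Same-numbered samples did not deviate together in all pairs of groups (correlations from -0.18 to 0.17), so the numbers were taken as names. With the replicate block, pachytene against type B gave 29 higher and 37 lower, spermatids against pachytene 9 and 36, and spermatids against type A 18 and 61.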

Other observations

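The 14 members that were not tested had low signals throughout, with a highest value of 46.1. Zfp418 was at 26.9 and 28.2 in type A spermatogonia, 18.9 and 14.1 in type B spermatogonia, 1.8 and 1.9 in pachytene spermatocytes, and 7 and 1.2 in round spermatids. Zfp551 was at 25.7 and 21.9 in type A spermatogonia and at most 7.5 on the other 6 arrays, and Zfp455 at 10.8 to 21.3 on the spermatogonial arrays and at most 3.3 on the later ones. These signals lie below the array medians, and no detection call was used. Without the filter, all 130 members gave 29 higher and 37 lower in pachytene against type B cells. They gave 9 and 35 in spermatids against pachytene cells, and 18 and 63 in spermatids against type A cells. All 18193 genes gave 19.6% higher and 25.9% lower, 12.4% and 14.4%, and 22.5% and 34.1% in the same order.

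Zfp560 was the only member called between the end points in the higher direction without a call in either later step. Its signals were 119.5 and 126 in type A spermatogonia, 163.5 and 226 in type B spermatogonia, 243 and 268 in pachytene spermatocytes, and 315 and 422 in round spermatids. The stage means were in that order, and its change in spermatids against type A was 1.46 ± 0.23 (SE, limma, adjusted p = 0.000657). Zfp428 was called in spermatids against pachytene cells alone, with 211 and 198 in spermatids, against 90.9 and 101.3 in pachytene cells, a change of 0.98 ± 0.28 (adjusted p = 0.0264) that was lost without either array of either group (changes of 0.91 to 1.04).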
